A study of Saccharomyces cerevisiae with 14 samples.

Results

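Peaks of the zinc cluster transcription factor Sef1 at the nuclear tRNA genes of *Saccharomyces cerevisiae* were examined. A peak belonged here when its position lay inside a nuclear tRNA gene of the S288C R64 annotation or within 500 bp of one. By this rule, 960 of the 3812 peaks in the 7 deposited peak lists (25.2%) were tRNA peaks. The windows searched cover 2.41% of the nuclear genome, and the tRNA genes themselves cover 0.182%. The study mapped TAP-tagged Sef1 by chromatin immunoprecipitation sequencing (ChIP-seq) under a fermentative and a respiratory condition. All cells were of the MATa strain W303ScSef1TAPNB1-1, a W303 derivative in which the tagged allele SEF1-TAP::FRT stands in a background with mutant alleles of LEU2 and of other marker genes (can1-100, ade2-1, his3-11,15, ura3-1 and trp1-1). Cells were grown at 30°C for 4.5 h in YPD, where glucose is the carbon source (4 repeats), or in YPGly, where it is glycerol (3 repeats). Each ChIP library was compared with an input library of its own.

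The media also differed in how the libraries were made. YPD cultures were taken at a cell density of about 1 OD600 per ml and YPGly cultures at about 0.4, and each YPD repeat pooled the DNA of several immunoprecipitations, so that more cells in all stood behind it than behind a YPGly repeat. YPGly repeat 3 came from a separate, paired-end sequencing run. The medium and these differences cannot be told apart in a comparison of the lists. No library of an untagged strain was analysed here. The lists hold between 373 and 771 peaks and no read numbers. The study's methods give 1 approximate depth for the libraries, but the reads of each library are unknown here, and no counting error is given. By the study's methods the repeats are biological ones, and an error or a p-value covers the spread between them.

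tRNA genes are transcribed by RNA polymerase III. Their promoter lies inside the transcribed part, in an A box near the 5′ end and a B box near the 3′ end. The factor TFIIIC binds these boxes and brings TFIIIB to the stretch just upstream of the gene, where the polymerase is recruited. The genes are short, lie scattered over all chromosomes, and many are identical copies of each other. In yeast they are highly transcribed during growth on glucose, and the repressor Maf1 lowers their transcription when growth slows or cells respire. Sef1 itself belongs to the zinc cluster family, whose members usually bind CCG and CGG triplets at a fixed spacing.

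The sequences of the genes on which the results below turn are shown first, from RefSeq in build R64, 5′ to 3′ on the strand of the gene. Capitals mark the B box, searched as the letters GTTCNANNC on the strand of the gene. The first pair belongs to the tRNA genes with the highest mean enrichment in YPD, by peaks within 100 bp of the gene. The next pair belongs to the amino acids at the ends of the order by calls in YPD, and the last pair to sites that ranked nearer the top in YPGly.
YNCN0010C, tRNA-Thr, chrXIV:560693-560765, minus strand: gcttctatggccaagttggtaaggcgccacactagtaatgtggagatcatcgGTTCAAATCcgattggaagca
YNCL0038W, tRNA-Ile, chrXII:734802-734875, plus strand: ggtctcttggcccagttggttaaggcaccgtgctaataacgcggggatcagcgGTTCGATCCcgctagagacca
YNCP0001C, tRNA-Trp with an intron, chrXVI:56169-56274, minus strand: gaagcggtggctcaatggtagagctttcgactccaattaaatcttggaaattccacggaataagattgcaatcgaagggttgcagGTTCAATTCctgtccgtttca
YNCP0007C, tRNA-Cys, chrXVI:435893-435964, minus strand: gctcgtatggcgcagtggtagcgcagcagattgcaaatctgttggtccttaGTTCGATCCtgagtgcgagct
YNCL0047W, tRNA-Lys with an intron, chrXII:875376-875471, plus strand: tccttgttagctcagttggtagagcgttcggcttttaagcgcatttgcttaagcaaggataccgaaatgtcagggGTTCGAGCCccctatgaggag
SUF10, tRNA-Pro, chrXIV:631846-631917, minus strand: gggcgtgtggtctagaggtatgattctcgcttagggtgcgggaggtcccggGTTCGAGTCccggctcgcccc

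The B box letters were found in all but 5 genes, and in each of the 270 others they began 21 bases from the 3′ end, as in the 6 sequences above. Within 125 bp of the peak position, and on either strand, they occurred at 95.1% of the 960 tRNA peaks and at 9.61% of the 2852 other peaks. Since most tRNA peaks lay in a gene, the first share follows from the rule. All genes together have 70 distinct sequences. Of the genes, 242 share their sequence with at least 1 other gene, up to 16 copies, and 33 are single. Of all 75-base stretches that touch a gene, a median of 94.2% per gene occur once in the genome.

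tRNA genes were a large share of the YPD lists and a small share of the YPGly lists. In YPD, 166 of 528, 227 of 771, 208 of 615 and 223 of 610 peaks were tRNA peaks in repeats 1 to 4, which is 31.4, 29.4, 33.8 and 36.6% of a list. In YPGly, 62 of 520, 33 of 373 and 41 of 395 peaks were tRNA peaks in repeats 1 to 3, or 11.9, 8.85 and 10.4%. Every YPD list lay above every YPGly list. The mean share was 32.8 ± 3.07% over the 4 YPD lists and 10.4 ± 1.54% over the 3 YPGly lists (both SD), a difference of 22.4 percentage points (two-sided exact permutation test over the 35 splits of the lists, p = 0.0286, the smallest p that 35 splits can give; Benjamini-Hochberg adjusted p = 0.0286 over 5 tests of this kind).

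The number of tRNA genes reached differed as much. A peak within 500 bp was found for 167, 230, 208 and 226 genes by YPD repeats 1 to 4, and for 63, 33 and 40 genes by YPGly repeats 1 to 3. The means were 208 ± 28.8 genes (SD, n = 4) and 45.3 ± 15.7 genes (SD, n = 3), and the groups did not overlap (difference 162 genes, exact permutation p = 0.0286, adjusted p = 0.0286). The lists differ in length. When every list was cut to its 373 peaks of highest score, tRNA peaks made up 32.2 to 42.6% of the YPD lists and 6.43 to 9.65% of the YPGly lists. This cut was not neutral between media, since tRNA peaks stood higher by score in YPD than in YPGly, as given below. Lists of equal length by enrichment were not made. Most tRNA peaks were weak by enrichment. When only peaks with an enrichment of at least 2 were kept, the YPD lists held 64, 14, 35 and 39 tRNA peaks and the YPGly lists 18, 10 and 15. Neither the difference in share (10.2 percentage points, exact permutation p = 0.0571) nor that in genes (26.1, p = 0.114) passed the test. The shares still did not overlap, at 22.5, 8.48, 16.7 and 15.9% in YPD and 5.56, 4.98 and 6.67% in YPGly. The gene numbers did, at 14 to 65 in YPD and 10 to 17 in YPGly. With a false discovery rate of at most 0.01 the difference was 117 genes (exact permutation p = 0.0571), at 103 to 203 genes in YPD and 29 to 55 in YPGly. tRNA peaks then made up 33.3, 37.7, 39.4 and 41.9% of the YPD lists and 11.1, 8.43 and 9.68% of the YPGly lists. In each YPD list a larger part of tRNA peaks than of other peaks passed this cut (62.0 to 97.1% against 45.2 to 76.4%). In each YPGly list a smaller part did (85.5 to 87.9% against 92.6 to 94.9%).

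**Figure D1:**
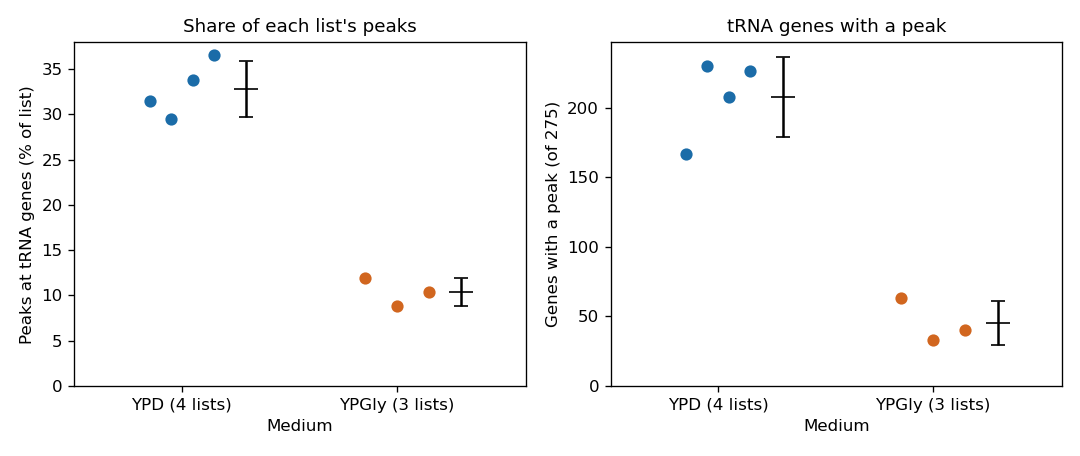
Share of each list's peaks that were tRNA peaks (left, %) and number of tRNA genes with a peak within 500 bp (right), 1 point per list, with the mean and SD of each medium in black. The 4 YPD lists lie at 29.4 to 36.6% and 167 to 230 genes, and the 3 YPGly lists at 8.85 to 11.9% and 33 to 63 genes.

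Taken over all lists, 253 genes had a peak in at least 1 list and 22 had none. A peak in at least 1 YPD list was found for 251 genes and a peak in at least 1 YPGly list for 66. In all 4 YPD lists 144 genes had a peak, a further 60 had one in 3 lists, 28 in 2, 19 in 1 and 24 in none. In YPGly, 29 genes had a peak in all 3 lists, 12 in 2, 25 in 1 and 209 in none. All 7 lists held a peak for 23 genes.

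Genes without a peak resembled the others in most annotated properties. Of the 22, 4 contained an intron (18.2%, against 21.8% of all genes), 13 lay within 500 bp of a long terminal repeat or a retrotransposon (59.1%, against 62.9%), and the median share of unique 75-base stretches was 94.2% in both sets. The median distance to the centromere was 42.8 kb for the 22 genes and 145 kb for all genes. These shares are a description, with no test.

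Overlapping intervals, from whichever list and by 1 bp or more, were joined into sites, and a site counted as called in a medium when at least 3 repeats of that medium held it. Among all 645 sites called in a medium, 312 were called in YPD only (48.4%), 108 in YPGly only (16.7%) and 225 in both (34.9%). The tRNA sites fell differently. Of 206 tRNA sites, 177 were called in YPD only (85.9%), 3 in YPGly only (1.46%) and 26 in both (12.6%). tRNA sites thus made up 177 of all 312 sites called in YPD only (56.7%), against 26 of the 225 in both (11.6%) and 3 of the 108 in YPGly only (2.78%). Of the 177 sites, 144 had no peak in any YPGly list, 22 had one in a single list and 11 in 2 lists. The count of 177 fell to 104 in lists of equal length, to 117 with a false discovery rate of at most 0.01 and to 21 with an enrichment of at least 2. These settings remove peaks of other sites too. The 3 counts alone do not show whether the excess over all sites held.

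The tRNA sites called in YPD only were weak. Their mean enrichment in YPD had a median of 1.59 and ran from 1.20 to 4.20, and 14 of the 177 reached 2. The other 135 sites called in YPD only had a median of 1.82, ran from 1.09 to 12.7, and 59 of them reached 2. Genes with more YPGly calls had higher levels in YPD. The median of the mean YPD enrichment was 1.55 for genes with no YPGly call, 1.70 with 1, 1.95 with 2 and 2.25 with 3. These medians cover the 185, 24, 11 and 27 genes with a YPD peak within 100 bp.

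By enrichment, tRNA peaks lay below the other peaks within each list, while by score the order depended on the medium. The median enrichment of tRNA peaks, a fold of ChIP over input, was 1.89, 1.41, 1.65 and 1.67 in YPD repeats 1 to 4 and 1.57, 1.68 and 1.70 in YPGly repeats 1 to 3. The other peaks of the same lists had medians of 2.37, 1.54, 1.86 and 2.09 in YPD and 2.49, 2.21 and 2.45 in YPGly. In all 7 lists the tRNA median was the lower one, by a mean of −0.36 ± 0.187 on the log2 scale (SD, n = 7; exact permutation test over all sign flips of the 7 lists, p = 0.0156, adjusted p = 0.0286). The highest tRNA peak of a list reached 7.84 to 12.1 in YPD and 19.2 to 29.0 in YPGly, where the highest other peak reached 206 to 398 and 228 to 275.2. With the score in place of the enrichment the difference was −0.43 and did not pass the test (exact sign-flip p = 0.203). By list, the log2 difference in median score was 0.10, 0.15, 0.19 and −0.17 in YPD repeats 1 to 4, so tRNA peaks lay above the others in 3 of the 4. It was −1.23, −0.89 and −1.13 in YPGly repeats 1 to 3.

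The position of tRNA peaks among all peaks of their list depended on the medium. The median tRNA peak stood at the 38.7th, 41.8th, 40.9th and 39.4th percentile of enrichment in YPD repeats 1 to 4, and in YPGly repeats 1 to 3 at the 22.8th, 31.5th and 28.7th. The means were 40.2 ± 1.40 (SD, n = 4) and 27.7 ± 4.45 (SD, n = 3), a difference of 12.5 percentile points (exact permutation p = 0.0286, adjusted p = 0.0286). It did not pass the test in lists cut to the same length (3.26 points, exact permutation p = 0.143), with an enrichment of at least 2 (9.27 points, p = 0.4) or with a false discovery rate of at most 0.01 (9.47 points, p = 0.0571). With that false discovery rate the media still did not overlap, at 32.8 to 39.1 in YPD and 22.3 to 31.5 in YPGly. Under the other settings they overlapped.

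Most peaks sat on the gene itself, in YPD more than in YPGly. Of the 960 tRNA peaks, most of them from YPD lists, 748 (77.9%) lay inside the gene and 927 (96.6%) inside or within 100 bp. The share inside the gene was 86.1, 75.3, 81.7 and 79.4% in YPD repeats 1 to 4. In YPGly repeats 1 to 3 it was 64.5, 60.6 and 65.9%. In YPD, 15.2% of tRNA peaks lay upstream of the gene within 100 bp and in YPGly 15.4%. The plot of positions shows a separate group of YPD peaks 11 to 20 bp upstream, with 74 peaks, next to the broad maximum inside the gene, where the largest share of a 10-bp interval was 15.0%. Measured from the B box, the median peak lay 31 bp toward the 5′ end, and the middle range ran from 47 to 9.5 bp. For the 137 genes with a peak within 100 bp in every YPD list, the positions of the 4 lists spanned a median of 33 bp, and for the 24 such genes in YPGly the 3 lists spanned 30.5 bp.

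Medians of the offset from the 5′ end of the gene were 29, 28, 29.5 and 24 bp for YPD repeats 1 to 4. For YPGly repeats 1 to 3 they were 34.5, 34 and 48 bp. YPD peaks lay nearer to the 5′ end, at 27.6 ± 2.50 bp (SD, n = 4) against 38.8 ± 7.94 bp (SD, n = 3), a difference of −11.2 bp (exact permutation p = 0.0286, adjusted p = 0.0286). Without YPGly repeat 3, the list from the separate paired-end run, it was −6.62 bp (exact permutation p = 0.0667, the smallest that 15 splits allow). The intervals of a list are 190 to 260 bp wide, so this difference is small beside the width of a peak. The direction turned when only peaks with an enrichment of at least 2 were kept (12.5 bp, exact permutation p = 0.0571), and measured from the middle of the gene the difference was −9.54 bp (p = 0.0571). For the 59 genes with a peak within 100 bp in both media, the median offset was 4.5 bp nearer to the 5′ end in YPD, with 33 genes nearer in YPD, 25 nearer in YPGly and 1 equal. Peaks of the 60 genes with an intron, which are longer, had a median offset of 42 bp, and those of the other 215 genes 23 bp.

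**Figure D2:**
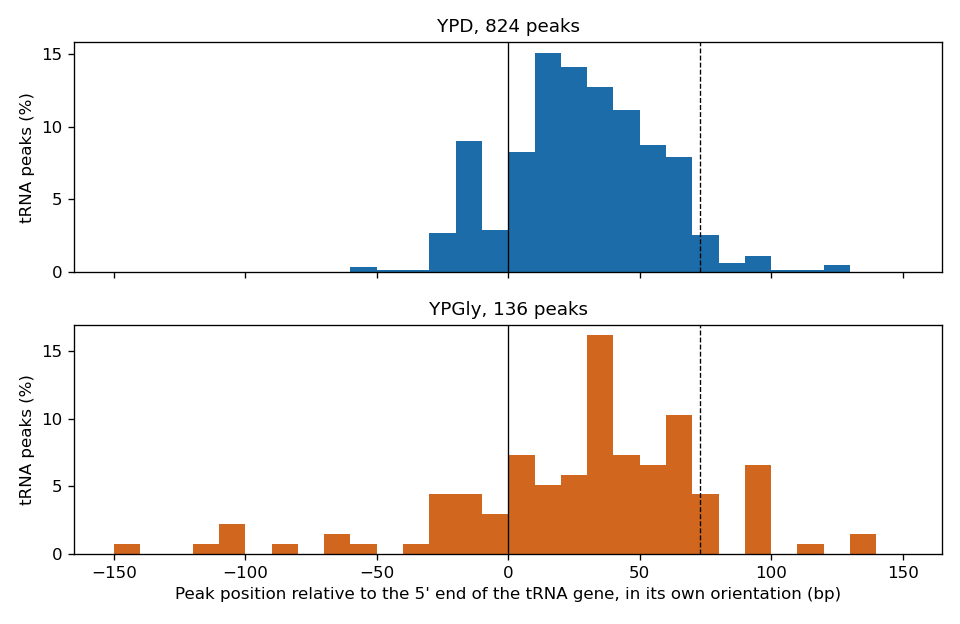
Positions of tRNA peaks relative to the 5′ end of the gene (x axis, bp, bins of 10 bp, negative upstream) as a share of the tRNA peaks of each medium (y axis, %), for the 824 peaks of the YPD lists (top) and the 136 of the YPGly lists (bottom). The solid line marks the 5′ end and the dashed line the median gene length of 73 bp, and most peaks of both media lie between the lines.

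The binding pattern found for Sef1, CCG and CGG with 5 bases between them, was nearly absent. CCGN5CGG, which reads the same on both strands, was searched within 125 bp of each peak position. It occurred at 3 of the 960 tRNA peaks (0.313%) and at 377 of the 2852 other peaks (13.2%). The 3 tRNA peaks belonged to 1 site, in the 3 YPGly lists, 499 bp from the tRNA-Leu gene YNCG0040C and 578 bp from the start codon of RNR4, which encodes a small subunit of ribonucleotide reductase. The pattern is shown here in capitals with 20 bases on each side, as the single case in the set.
Pattern near YNCG0040C, chrVII:856791-856841, plus strand: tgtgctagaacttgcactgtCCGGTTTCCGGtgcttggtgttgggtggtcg

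With 1 mismatch allowed in the 6 fixed bases, 305 tRNA peaks (31.8%) and 1656 other peaks (58.1%) held the pattern. Within 250 bp of the position the counts were 13 (1.35%) and 425 (14.9%). A missing match says only that these letters are not in the window.

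By amino acid, the calls in YPD were spread over almost all kinds of tRNA. A peak in at least 3 YPD lists was found for 66.7 to 90% of the genes of 18 amino acids, from Ile, Leu and Pro at 66.7% to Met at 90%. Tryptophan stood above this range, with all 6 genes, and cysteine below it, with 0 of 4. The 6 Trp genes have 1 sequence, as do the 4 Cys genes, so each is a single case. The 4 Cys genes had peaks in at most 2 YPD lists, and the 2 with a peak there had mean enrichments of 1.55 and 1.80. The 6 Trp genes had means of 1.46 to 2.05, which overlap these values.

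In YPGly the order was another one. A peak in at least 1 YPGly list was found for 8 of 19 Ser genes (42.1%), 5 of 12 Pro genes (41.7%), 6 of 16 Asp genes (37.5%) and 3 of 6 Trp genes (50%), but for 1 of 18 Val genes (5.56%) and 0 of 7 His genes. All 3 YPGly lists held a peak for 5 Ser genes and for 3 genes each of Lys, Gly, Ile and Pro. The median level of the genes in YPD differed little between amino acids, from 1.50 for Val to 1.79 for Pro, while the highest gene ranged from 1.66 for His to 9.36 for Thr.

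**Figure D3:**
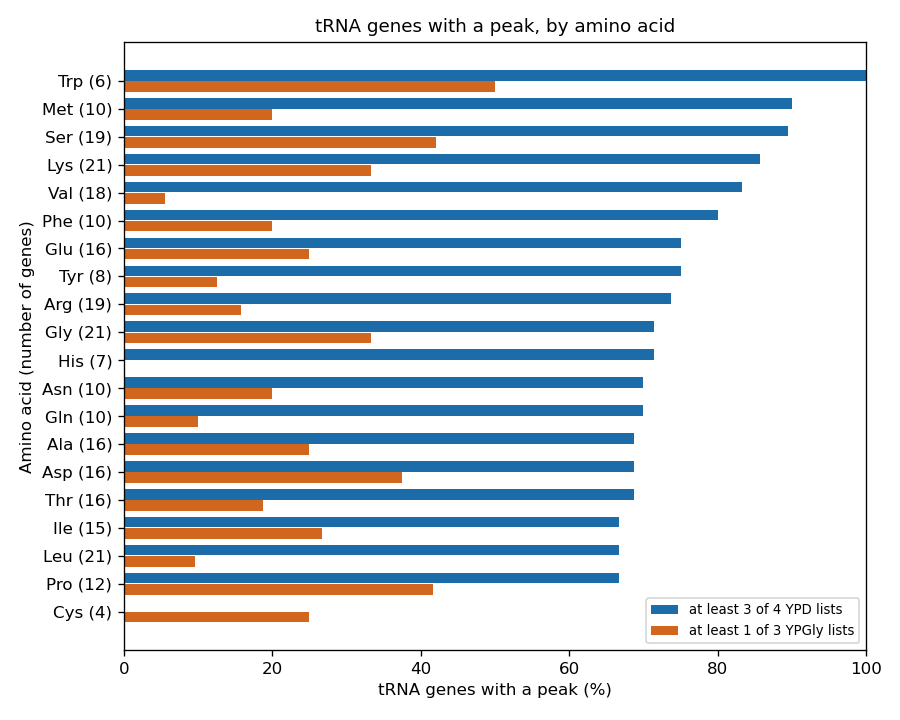
Share of the tRNA genes of each amino acid (x axis, %) with a peak within 500 bp in at least 3 of 4 YPD lists (blue) and in at least 1 of 3 YPGly lists (orange), with the number of genes in parentheses. Blue bars run from 66.7 to 100% except for Cys at 0%, and orange bars from 0% for His to 50% for Trp.

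Identical copies of a gene did not have identical levels. The Thr gene YNCN0010C has 11 copies, and among those with a YPD value within 100 bp the mean enrichment ran from 1.35 to 9.36, with a median of 1.68. The Ile gene YNCL0038W has 13 copies, which ran from 1.44 to 7.82, with a median of 1.59. The 15 copies of an Asp gene ran from 1.28 to 3.96. At the other end, the 13 copies of a Val gene ran from 1.24 to 1.62 and the 7 copies of a Leu gene from 1.29 to 1.56. YNCN0010C and YNCL0038W were the highest of their families by more than the SD between YPD lists.

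Both genes lie next to a very strong Sef1 site. The 4 sites of highest mean enrichment over all lists lie on chromosomes XV, XII and XIV, at the promoters of IDH2 (mean 273), ISA1 (267), IDH1 (213) and ACO1 (211). IDH1 and IDH2 encode the subunits of the mitochondrial isocitrate dehydrogenase, ACO1 encodes aconitase, and ISA1 acts in the assembly of iron-sulfur proteins. The grouping by distance from these sites was chosen after the values were seen, so it is a description with no test.

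YNCN0010C lies 1.34 kb from the IDH1 site. Its enrichment was 12.1, 6.80, 8.82 and 9.74 in YPD repeats 1 to 4 and 2.80, 2.85 and 2.92 in YPGly repeats 1 to 3, and the media did not overlap. The mean of the YPD lists was 9.36 ± 2.20 (SD, n = 4), and that of the YPGly lists was 2.86 ± 0.0620 (SD, n = 3). Enrichments of different lists are relative to different inputs, so such values are set side by side, and the media are compared through ranks further on.

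Among genes with a peak within 100 bp, YNCL0038W followed, 3.05 kb from the ACO1 site. It had 9.69, 6.19, 7.09 and 8.32 in YPD and 2.76, 2.57 and 3.02 in YPGly. Next in YPD came genes 5.57 to 8.77 kb away. These were the Pro genes YNCL0001W (mean 4.20 ± 1.14, SD, n = 4) and YNCN0011W (4.01 ± 1.01), the Leu gene YNCL0037W (4.01 ± 0.773) and the Asp gene YNCO0019W (3.96 ± 0.694). The spread between lists is larger than the differences among these 4 genes. The Pro gene YNCN0009W (3.65 ± 0.738), the Gly gene SUF5 (3.40 ± 0.718) and the Ile gene YNCN0012C (2.76 ± 0.395) lay 10.5 to 14.5 kb away.

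These 9 genes are all that lie within 20 kb of the 4 sites. All 9 had a peak in every YPD list, against 135 of the other 266 genes, and 7 had one in every YPGly list, against 22 of the others. Only peaks inside or within 100 bp of a tRNA gene were counted for the levels by distance. For genes within 5 kb, the median enrichment was 8.57 in YPD and 2.82 in YPGly. It was 3.94 and 1.59 from 5 to 10 kb, 3.20 and 1.66 from 10 to 20 kb, 1.75 and 1.90 from 20 to 50 kb, and 1.60 and 1.50 farther away or on other chromosomes. In each YPD list the median of the 9 genes lay above every such peak beyond 20 kb, with a ratio of medians of 2.17 to 2.64. Peaks more than 100 bp from their tRNA gene are left out here. The one 295 bp from SUP17, on chromosome IX, had 9.09, 7.84, 7.18 and 9.02 in YPD repeats 1 to 4. These lay above the medians of the 9 genes, which were 4.93, 3.03, 3.55 and 4.24. The one 364 bp from SUF10 exceeded the median in YPD repeat 2 only (3.43). In the YPGly lists the ratio was 1.04 to 1.42. There, 6 to 12 of the peaks within 100 bp of a gene beyond 20 kb exceeded the median of the near genes. When the 12 strongest sites were used in place of 4, the medians in YPD were 8.57, 3.61, 2.15, 1.62 and 1.60 over the same distance steps. Such sites are flanked by other weak peaks as well. A peak between YNCL0038W and the ACO1 site, 407 bp from the gene, reached 3.42 and 3.53 in YPD repeats 3 and 4. Its site also held a peak of 3.11 in YPD repeat 2.

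**Figure D4:**
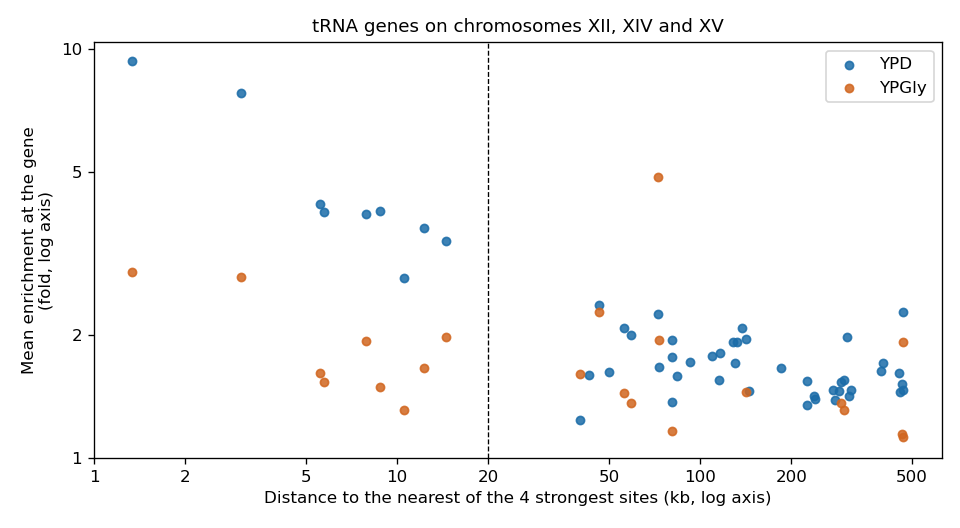
Mean enrichment at each tRNA gene of chromosomes XII, XIV and XV (y axis, fold, log axis) against its distance from the nearest of the 4 strongest Sef1 sites (x axis, kb, log axis), with YPD in blue, YPGly in orange and a dashed line at 20 kb. The 9 genes left of the line have YPD means of 2.76 to 9.36 and YPGly means of 1.31 to 2.86.

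To compare single sites between media, sites were ranked by enrichment within each list, from rank 1 for the highest, over the 203 sites that every list held. Among all 203 sites, every YPD rank lay nearer the top than every YPGly rank at 71 (35%), and the reverse held at 63 (31%). Of the 22 tRNA sites in this set, 19 lay nearer the top in YPD without overlap, 2 nearer the top in YPGly, and 1 overlapped. The 21 sites without overlap became 7 with a false discovery rate of at most 0.01 and 5 with an enrichment of at least 2. Both filters also took sites out of the set, since a site had to stay in every list. These counts therefore cannot be set against 22, and no shift changed direction at the tRNA sites that stayed. The median shift at tRNA sites was −50.2 ranks, YPD minus YPGly, against −0.33 for all 203 sites. No site passed the adjusted test: the lowest adjusted p was 0.0523 (exact permutation test for each site, Benjamini-Hochberg over 203 sites), and 16 of the 22 tRNA sites and 111 of all 203 had an unadjusted p under 0.05. Ranks of sites in a list depend on each other.

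The largest shifts toward YPD were at YNCN0011W (−135 ranks), YNCL0037W (−134), YNCN0012C (−112), YNCO0019W (−102) and YNCN0010C (−95.5), all within 20 kb of the strongest sites. Their ranks in YPD averaged 55.8, 54.8, 86.8, 55.5 and 24.5 of 203. Away from those sites the shifts were smaller. They were −65.4 at the Ile gene YNCD0017W, −64.5 at the Glu gene YNCL0044W and between −56.2 and −32.9 at SUP61, YNCE0005W, SUP16, YNCP0009W, YNCF0014C, SUF1, YNCP0008C, YNCL0039W and SUF2. In enrichment, YPD and YPGly values overlapped at 8 of these 11 genes, and they did not at YNCD0017W, YNCL0044W and SUP16.

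**Figure D5:**
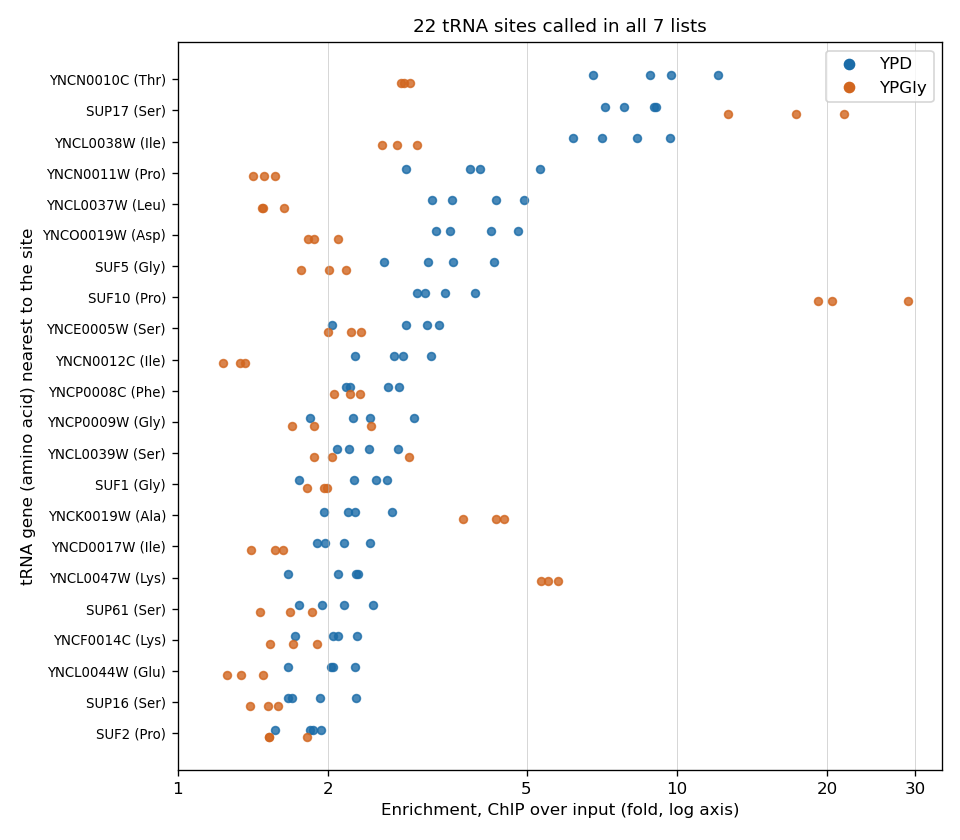
Enrichment (x axis, fold of ChIP over input, log axis) at the 22 tRNA sites called in all lists, 1 point per list, with YPD in blue and YPGly in orange, ordered by the mean in YPD. YPGly points lie right of all YPD points at SUP17, SUF10, YNCK0019W and YNCL0047W, and at the other genes the media overlap or YPD lies to the right.

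At 4 of the 22 tRNA sites called in all lists, every YPGly enrichment lay above every YPD one, and at these 4 the YPGly peaks lay beside the gene. Of these, the highest was 364 bp from the Pro gene SUF10, a frameshift suppressor locus, and 421 bp from the start codon of CIT1, which encodes mitochondrial citrate synthase. Its enrichment was 3.14, 3.43, 3.01 and 3.95 in YPD and 29.0, 19.2 and 20.5 in YPGly, and its rank moved from a mean of 66.8 to 25.7. A second peak on SUF10 itself was called in the 4 YPD lists at 2.27, 1.97, 2.22 and 2.53, and in YPGly repeats 1 and 3 at 5.37 and 4.39.

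The next was 295 bp downstream of the Ser gene SUP17, a nonsense suppressor locus, and 765 bp from the start codon of VHR1, a transcription factor of biotin metabolism. Enrichment there was 9.09, 7.84, 7.18 and 9.02 in YPD and 21.6, 12.6 and 17.3 in YPGly, without overlap. Its mean rank, however, was 27 in YPD and 31 in YPGly, slightly nearer the top in YPD, so the order of the media depends on the measure.

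At YNCL0047W, a Lys gene beside FBP1, the site held positions that differed between media. FBP1 encodes fructose-1,6-bisphosphatase, an enzyme of gluconeogenesis that is used without glucose. In YPD the peak lay inside the gene, at offsets of 31, 17, 0 and 19 bp, with enrichments of 2.3, 1.67, 2.28 and 2.10. In YPGly it lay upstream of the gene, at offsets of −109, −108 and −104 bp toward FBP1, with enrichments of 5.53, 5.35 and 5.78. Neither positions nor values overlapped. The Ala gene YNCK0019W was alike, with YPD peaks at offsets of −19, −22, −21 and −23 bp (2.69, 1.97, 2.20 and 2.27) and YPGly peaks at −142, −111 and −85 bp (4.35, 3.74 and 4.51), so that these merged sites may hold more than 1 peak each.

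In all, 33 of the 960 tRNA peaks, in 10 sites, lay more than 100 bp from the gene. Besides the sites already named, they lay at SUF2, YNCE0010W, YNCL0040W and SUF1, with enrichments of 1.40 to 2.22.

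The 3 tRNA sites called in YPGly only were weak too. On the Glu gene YNCD0021C, peaks of 2.29, 1.76 and 2.00 were called in YPGly, and none in YPD. The site 499 bp from YNCG0040C, which holds the pattern printed above, had 2.43, 1.74 and 2.15 in YPGly. Its site also held peaks of 1.15 and 1.22 in YPD repeats 2 and 4. The site at the Asp gene YNCN0008C, beside the porin gene POR1, had 1.94, 1.38 and 1.49 in YPGly and 1.20 and 1.27 in YPD repeats 2 and 4. Among sites called in both media, the initiator Met gene IMT2 had a mean of 2.07 ± 0.212 over 3 YPD lists and of 2.54 ± 0.364 over the 3 YPGly lists (SD).

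Levels at tRNA genes agreed better within a medium than between media. The Spearman rank correlation of enrichment was taken across the tRNA genes with a peak in both lists of a pair. It was 0.73 to 0.87 for the 6 pairs of YPD lists (147 to 201 genes) and 0.85 to 0.90 for the 3 pairs of YPGly lists (25 to 30 genes). For the 12 pairs of lists of different media it was 0.43 to 0.67 (23 to 52 genes). Genes are not independent replicates, and the pairs share lists, so no test was made.

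Other genes of RNA polymerase III were called too. RPR1, the RNA of RNase P, had a peak in all 7 lists, at 3.50, 2.55, 2.79 and 3.11 in YPD and 8.65, 5.77 and 6.98 in YPGly, without overlap. SCR1, the RNA of the signal recognition particle, had 3.23, 1.88, 2.31 and 2.64 in YPD, and 1.97 and 1.74 in YPGly repeats 1 and 2. SNR52, a small nucleolar RNA, had 2.39, 1.46, 1.87 and 2.06 in YPD and 1.49 in YPGly repeat 1. SNR6, the U6 spliceosomal RNA, ran from 1.22 to 1.51 in YPD, with 1.21 and 1.24 in YPGly repeats 1 and 3. Of the 6 annotated 5S rRNA genes RDN5, 3 had a peak in every YPD list, with means of 1.26 to 1.32, and none in YPGly. RNA170 had no peak. Repeated 5S genes are near-identical, and which copy a read came from is uncertain.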

How the data were processed

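Members and gene lists were chosen with earlier results of these data known. The submitters' processing notes name Trimmomatic 0.36 and Bowtie2 2.3.3, and the authors called peaks in each ChIP library against its input, without pooling repeats. The caller's settings are not given in the sources used here. Most lists are attached to samples titled as inputs, and each was taken as the result of its medium and repeat. The deposited lists give for each peak a position, a score, an enrichment as a fold ratio (maximum-likelihood estimate, used here, and a lower bound) and a false discovery rate, a q-value, which the deposited intervals give as −log10. No value was normalized again.

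Peaks were assigned to the nearest nuclear tRNA gene of RefSeq R64 within 500 bp, and levels of a gene are those of peaks within 100 bp. Intervals overlapping by 1 bp were merged into sites, called with 3 repeats of a medium. Lists, not peaks, were the replicates, tested by two-sided exact permutation over 35 splits, or all sign flips for a difference within lists, with a threshold of 0.05. Named were the tRNA sites called in all lists, the 10 of highest enrichment in each medium, the largest rank shifts, sites called in YPGly only and amino acids at the ends of the order. Other genes were chosen after their values were seen. Alternatives were other windows, a false discovery rate of 0.01, an enrichment of 2, lists of equal length, other measures and merging, each repeat left out and a replicate block. Scripts were tested on simulated lists (Python 3.11.15, numpy 2.4.6, pandas 2.3.3, matplotlib 3.10.9).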

Additional observations from a re-analysis of the deposited data

Results flagged for a closer look

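In the full lists, the deficit of tRNA peaks against the other peaks of their list differed between media. On the log2 scale it was −0.24 ± 0.103 over the 4 YPD lists and −0.53 ± 0.134 over the 3 YPGly lists (SD), and the difference of 0.29 between media, YPD minus YPGly, reached the smallest p that 35 splits can give (two-sided exact permutation test, p = 0.0286, not adjusted). In lists of equal length the media overlapped, at −0.45, −0.40, −0.37 and −0.56 in YPD repeats 1 to 4 and −0.50, −0.39 and −0.48 in YPGly repeats 1 to 3. With a false discovery rate of at most 0.01 they overlapped too, at −0.63, −0.30, −0.25 and −0.51 against −0.65, −0.50 and −0.48. With an enrichment of at least 2 they did not overlap. Whether the amount of cells pooled per repeat has a part in the difference was not tested. Of 30 sets of list values and site values searched for a list far from the others (Dixon's test, under which about 1 set in 20 is marked by chance), none was marked.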

How the results depend on the processing

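Leaving out 1 list at a time left 20 or 15 splits, so that the smallest exact permutation p was 0.1 or 0.0667 and no difference between media could pass. The values were 21.2 to 23.6 percentage points for the share, 155 to 176 genes, 10.1 to 14.5 percentile points, −13.6 to −6.62 bp for the offset, −0.40 to −0.31 (exact sign-flip p = 0.0312) for the log2 difference to other peaks, 733 to 927 tRNA peaks, 122 to 176 sites called in YPD only, 21 to 25 sites without overlap of ranks and 2 to 3 peaks with the pattern. The repeats share only a number. Deviations of the 3 same-numbered pairs of lists correlated at −0.47, −0.37 and 0.28 over 22 sites, and with the replicate block the differences were 21.2 points, 156 genes, 12.8 percentile points and −10 bp (exact sign-flip p = 0.25 each, the smallest that 3 pairs allow).

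An enrichment of at least 2 changed most: 195 tRNA peaks, a share difference of 10.2 points (exact permutation p = 0.0571), 26.1 genes (p = 0.114), 9.27 percentile points (p = 0.4), an offset difference turned to 12.5 bp (p = 0.0571), 21 sites called in YPD only and 5 without overlap. A false discovery rate of at most 0.01 gave 117 genes and 9.47 percentile points (both exact permutation p = 0.0571), 117 sites called in YPD only and 7 without overlap. The shares with an enrichment of at least 2, and the genes and percentiles with this false discovery rate, did not overlap between media. Lists of equal length gave 3.26 percentile points (exact permutation p = 0.143) and 104 sites called in YPD only. The score gave −0.43 for the difference to other peaks (exact sign-flip p = 0.203). The offset from the middle of the gene, chosen after seeing the data, differed by −9.54 bp (exact permutation p = 0.0571). The pattern was found at 0 peaks with a 200-bp window, at 7 with 1000 bp, at 305 with 1 mismatch and at 13 within 250 bp. Beyond the peaks each setting removes, the cause was not tested. The other 52 values kept direction and side of the threshold, or stayed within 1.5 times the count, also without the genes within 20 kb of the strongest sites, where the share differed by 23.2 points, the percentile by 13.1 points and the log2 enrichment by −0.38. The rank shifts of the 22 sites turned under none of 249 recomputed values, and 12 of these passed the adjusted test. The lowest adjusted p was 0.0462 (exact permutation test, Benjamini-Hochberg over the sites of a setting). It depends on the share of sites that reach the smallest exact p, and the set of sites differs between settings. Read numbers, and with them the precision of a single peak, are unknown.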
